A study of Mus musculus with 6 samples.

Results

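Glutathione, peroxide and superoxide defence genes encode the enzymes that remove superoxide, hydrogen peroxide, lipid peroxides and reactive electrophiles from cells. The set was given as a list of 38 symbols, and each symbol matched exactly 1 of the 52550 mouse genes in the count tables through the GENCODE M21 annotation of GRCm38. Of the 38 genes, 37 had enough reads to be tested. Mgst2, a microsomal glutathione transferase, was too low, with 7, 0 and 4 reads in GR-cKO libraries and 7, 18 and 6 reads in control libraries.

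The 6 libraries were made from whole mouse hearts collected on postnatal day 7, with 3 libraries for each genotype. The genotype label of the first group is GR-cKO, and the series title describes it as a cardiomyocyte-specific deletion of the glucocorticoid receptor, the product of Nr3c1. The genotype label of the second group is ctrl, here called control. The labels name neither the Cre line, the deleted exon, the strain nor the alleles of the controls, and they present the 3 libraries in each as biological replicates without saying whether each is 1 heart. Heart tissue also holds fibroblasts, endothelial, mural and blood cells, in which the receptor was not targeted. In such bulk samples fewer cells of a type and less RNA per cell cannot be told apart. RNA was read at the 3′ end of polyadenylated transcripts, so that longer transcripts do not give more reads.

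Superoxide dismutases turn superoxide into hydrogen peroxide, and catalase, the peroxiredoxins and the glutathione peroxidases then reduce that peroxide. Peroxiredoxins mostly draw their electrons from thioredoxin and thioredoxin reductase, and glutathione peroxidases draw theirs from glutathione, which glutathione reductase regenerates. Glutathione transferases join glutathione to electrophiles. The transcription factor NRF2, encoded by Nfe2l2, drives many of these genes through antioxidant response elements. Heart muscle is rich in mitochondria, the main source of superoxide in the cell, and its oxygen supply rises at birth.

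Depth was similar across libraries, at 18135540 to 20988286 reads in GR-cKO and 19209410 to 22999192 reads in control libraries. Nr3c1 had 57.6, 49.2 and 56.2 CPM (the reads of a gene relative to the scaled reads of all tested genes of its library) in GR-cKO libraries and 114, 131 and 99.7 CPM in control libraries, so that no GR-cKO value reached a control value. Its log2 fold change was -1.08 (SE 0.125, adjusted p = 0.00101 in edgeR), and it was the only gene that passed the adjusted threshold of 0.05 among 14860 tested, or 0.00673% of them. The 3′ reads may lie outside the deleted part and do not measure the deletion itself. Markers of heart muscle were abundant in every library. The 8 of them summed to 42422 to 52398 CPM in GR-cKO and 43478 to 44180 CPM in control libraries.

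As NRF2 is the shared regulator of many of these genes, promoter windows of RefSeq (GRCm38.p6, 250 bases before to 50 after each start) were searched for the core of the antioxidant response element, TGACNNNGC, on both strands. Windows were found for 32 of the 38 genes, and 7 of these genes (21.9%) held the core, against 14.0% of all 27025 genes with a window. The 7 matches follow, each in the direction of its gene with up to 20 bases on either side. Capitals mark the core, which in all but Nfe2l2 and Gstm5 reads as its reverse complement.

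Nfe2l2 (chr2:75704875-75704913, minus strand): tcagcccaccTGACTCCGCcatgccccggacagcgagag

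Gclm (chr3:122245403-122245451, plus strand): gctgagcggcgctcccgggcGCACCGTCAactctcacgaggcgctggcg

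Gstm5 (chr3:107895792-107895840, plus strand): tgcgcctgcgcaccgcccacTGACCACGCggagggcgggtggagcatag

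Mgst1 (chr6:138140451-138140499, plus strand): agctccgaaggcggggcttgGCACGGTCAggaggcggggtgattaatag

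Txnrd1 (chr10:82859094-82859142, plus strand): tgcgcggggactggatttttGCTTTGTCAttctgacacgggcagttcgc

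Prdx1 (chr4:116685446-116685494, plus strand): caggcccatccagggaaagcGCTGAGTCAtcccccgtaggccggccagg

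Sod1 (chr16:90220686-90220734, plus strand): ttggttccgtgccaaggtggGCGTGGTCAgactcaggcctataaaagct

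The first base of the match lay 240 bases before the start in Nfe2l2, 134 in Gclm, 133 in Prdx1, 92 in Txnrd1, 56 in Mgst1, 56 in Sod1 and 42 in Gstm5. These matches are descriptions of the letters, not shown binding sites. The core of a glucocorticoid response element, GNACA and TGTNC with any 3 bases between them, sought on both strands, was in no window of the 32 genes and in 0.537% of all genes with a window. Nqo1, a standard NRF2 target, had no match in its window. Gclc, Gsr, Gsta4, Hmox1, Prdx6 and Sod3 had no window in the table.

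None of the 37 tested defence genes passed the edgeR test in either direction, with a smallest adjusted p of 0.998. At an unadjusted p under 0.05 stood 4 genes, Mgst1, Sod3, Gsto1 and Gstk1, all with negative log2 fold changes. They make up 10.8% of the tested defence genes, against 4.20% of all tested genes in either direction with 2.07% higher and 2.13% lower. This share was not tested. Control replicate 2 was the highest library for all 4. Without it their log2 fold changes were -0.83, -0.31, -0.31 and -0.30 in the order named. Leaving out the highest control is bound to move a negative log2 fold change toward 0, so this shift shows nothing by itself. At the other end, leaving out a different library gave -1.37, -0.68, -0.47 and -0.72. DESeq2, which called 0.0269% of all genes it tested (0.0202% lower), and limma voom also called none of the 37. In all, 15 had positive and 22 had negative log2 fold changes (median -0.03), against 0.01 over all tested genes. Their log2 fold changes had a median SE of 0.15, against 0.21 over all tested genes. The 95% interval excluded a 2-fold difference in either direction for 36 of the 37, all but Mgst1, against 72.1% of all tested genes. It excluded a 1.5-fold difference for 25 of the 37 (67.6%), against 47.7% of all tested genes.

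**Figure D1:**
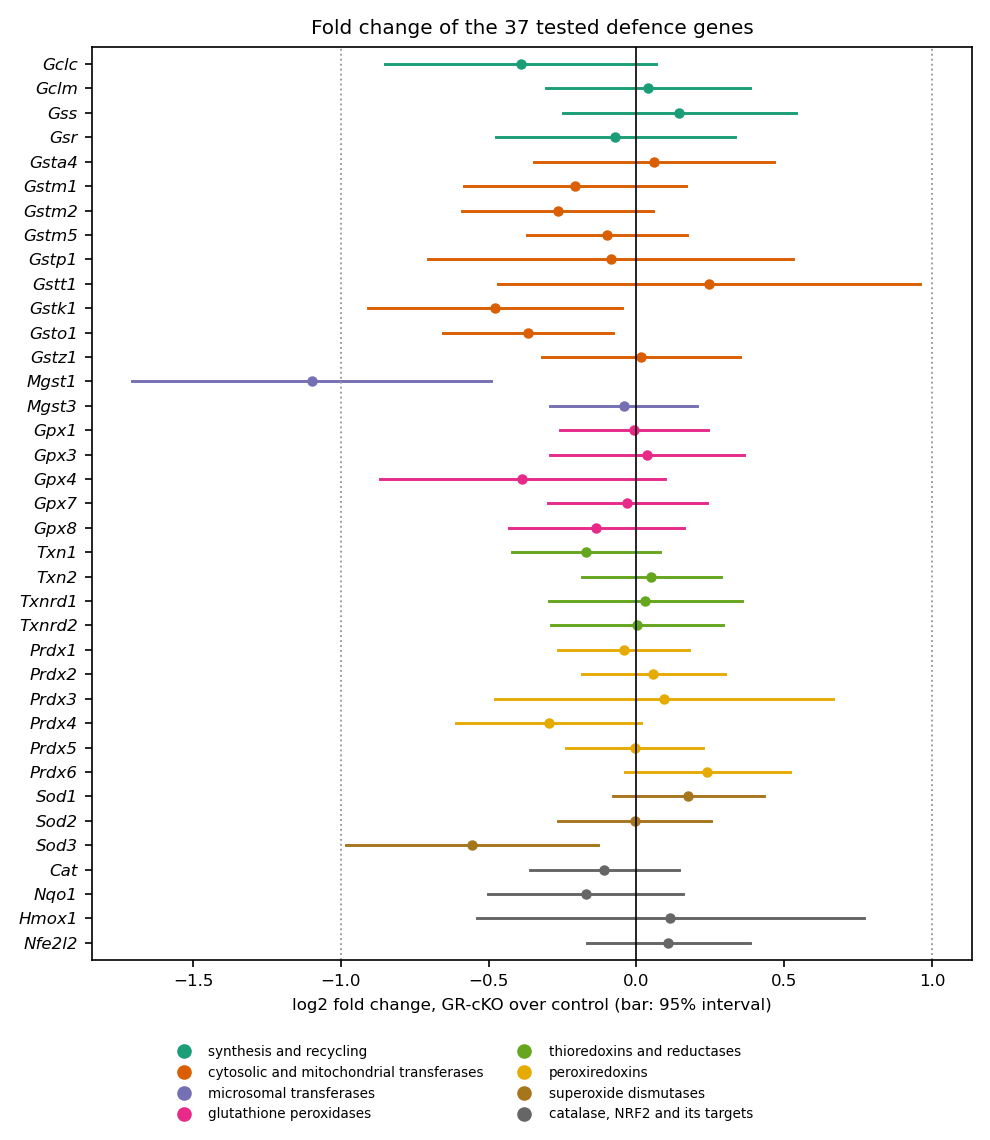
Log2 fold change, GR-cKO over control, of the 37 tested defence genes by role (points), with 95% intervals (bars) and dotted lines at a 2-fold difference. The interval of Mgst1 alone reaches beyond a 2-fold difference, and those of Sod3, Gsto1 and Gstk1 also lie wholly below 0.

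The 3 GR-cKO libraries lay entirely to 1 side of the 3 control libraries for 5 of the 37 genes (13.5%), against 9.97% of all tested genes. Mgst1, Sod3, Gclc and Gstm2 lay below the controls, as did 5.27% of all tested genes, and Gstt1 lay above, as did 4.7%. Both shares are small counts set beside a background and were not tested.

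The levels of the enzymes in neonatal heart spanned more than the differences between the groups. Sod1, Prdx2, Sod2 and Prdx1 were the 4 most abundant, each averaging between 566 and 746 CPM over the 6 libraries. Neighbours in that order overlapped in their ranges, but Prdx1, at 528 to 595 CPM, stood clear of Prdx6 in the fifth place, at 235 to 380 CPM. At the low end, Gstp1, Hmox1 and Gstt1 averaged 4.61, 4.41 and 3.05 CPM.

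**Figure D2:**
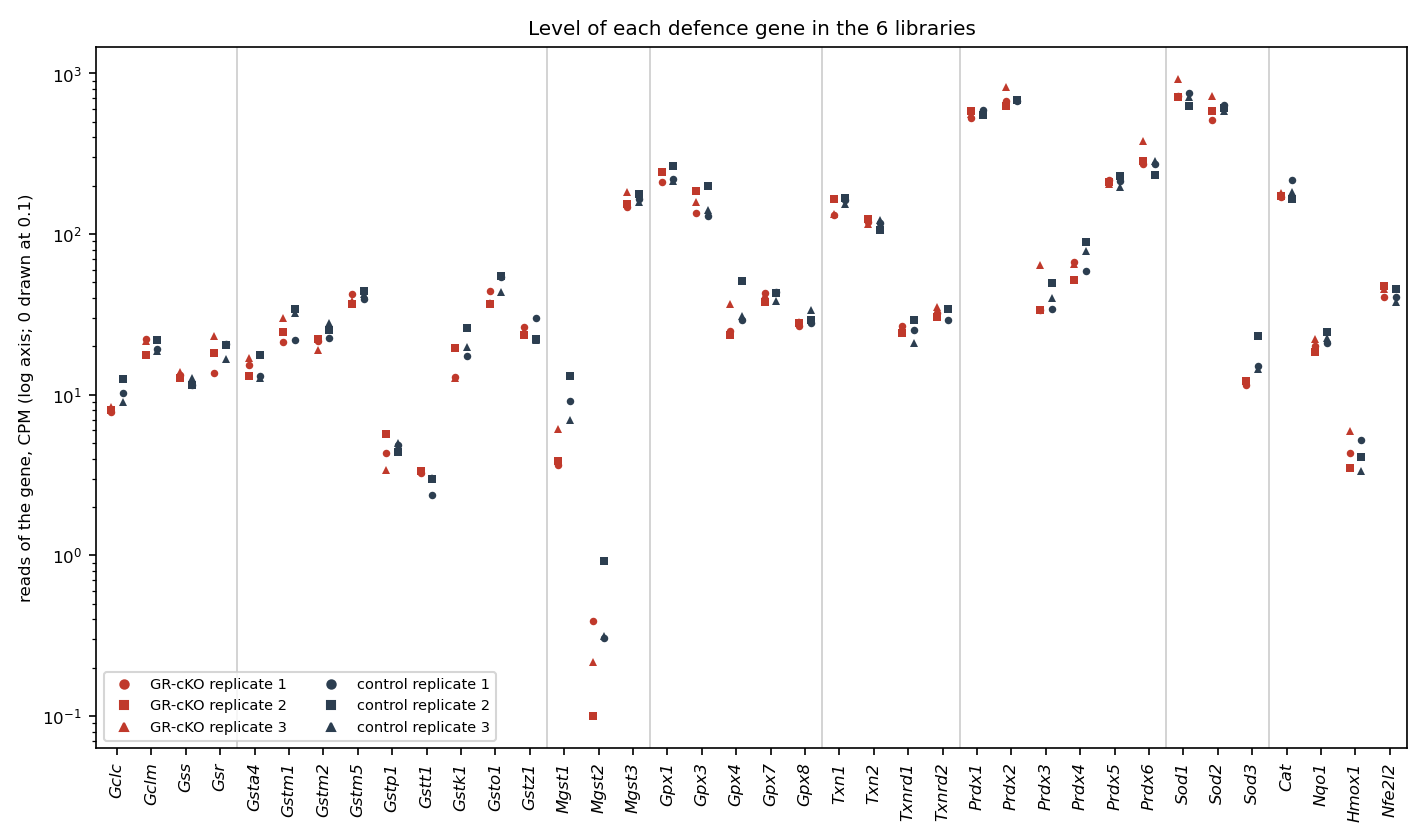
CPM (log axis) of each of the 38 genes in the 3 GR-cKO (red) and 3 control (dark) libraries, with a symbol per replicate number and grey lines between role groups. Sod1, Prdx2, Sod2 and Prdx1 sit at the top in every library, and Mgst2 lies below 1 CPM.

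Summed by class, the 6 peroxiredoxins took 38.6 to 40.5% of the CPM of the 38 genes in a library, the 3 superoxide dismutases 26.6 to 31.5%, the 21 glutathione genes 18.1 to 22.7% and the 4 thioredoxin genes 5.90 to 7.42%. The order was the same in all 6 libraries. Peroxiredoxins summed to 1797, 1794 and 2094 CPM in GR-cKO libraries and 1844, 1834 and 1868 CPM in control libraries. Superoxide dismutases summed to 1255, 1318 and 1661 CPM in GR-cKO and 1412, 1261 and 1313 CPM in control libraries. For both classes GR-cKO replicate 3 was the highest library and the other GR-cKO values lay within or just below the control range. This order depends on the scaling. The TMM factor of GR-cKO replicate 3 was 0.904, which raises its CPM, against 1.01 to 1.06 in the other libraries. Its spike-in factor was 1.08, and class sums under other scalings were not computed. The 38 genes took 0.476% of the CPM of all genes in that library, against 0.470 to 0.483% in control libraries. Glutathione genes summed to 841, 918 and 953 CPM in GR-cKO and 892, 1076 and 891 CPM in control libraries. Thioredoxin genes summed to 310.0, 343 and 311 CPM in GR-cKO and 334, 338 and 332 CPM in control libraries. The groups overlapped in each of these 4 classes.

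**Figure D3:**
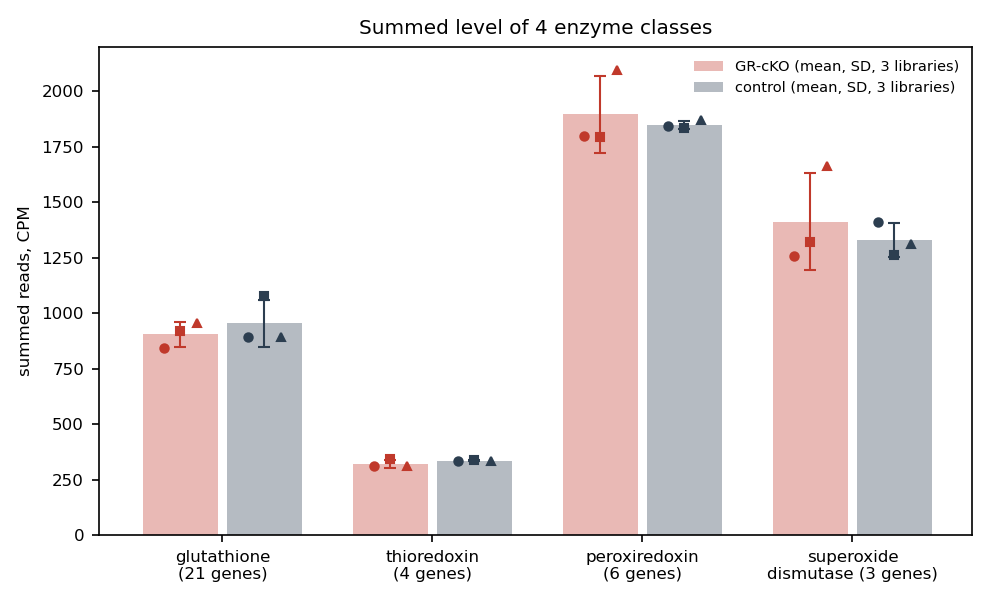
Summed CPM of the 4 enzyme classes in GR-cKO (red) and control (dark) libraries, as means with SD (bars) and single libraries (circle, square and triangle for replicates 1, 2 and 3). The highest peroxiredoxin and superoxide dismutase sums belong to GR-cKO replicate 3, and the highest glutathione sum to control replicate 2.

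The enzymes that make and recycle glutathione showed no call. Gclc, the catalytic subunit of the rate-limiting glutamate-cysteine ligase, had 7.76, 8.06 and 8.39 CPM in GR-cKO libraries and 10.3, 12.5 and 8.97 CPM in control libraries. All 3 GR-cKO values lay below the controls, by a small margin from control replicate 3. The log2 fold change was -0.39 (SE 0.219, adjusted p = 0.998 in edgeR). It ran from -0.50 without control replicate 3 to -0.26 without control replicate 2. Gclm, the modifier subunit of the same ligase, averaged 20.5 ± 2.49 CPM in GR-cKO and 19.9 ± 1.67 CPM in control libraries (SD, n = 3 each), with a log2 fold change of 0.04 (95% interval -0.30 to 0.38). Gss, glutathione synthetase, averaged 13.2 ± 0.594 CPM in GR-cKO and 12.0 ± 0.732 CPM in control libraries. Gsr, glutathione reductase, averaged 18.3 ± 4.75 CPM in GR-cKO and 19.2 ± 2.13 CPM in control libraries. Gss shares exonic bases with Acss2 and other genes on the opposite strand, and its count is uncertain where strand was not used.

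Among the 9 soluble glutathione transferases, 6 had negative and 3 had positive log2 fold changes (median -0.10). Their CPM summed to 192, 186 and 186 in GR-cKO libraries and 205, 231 and 208 in control libraries. All GR-cKO sums lay below all control sums, a separation that was not tested and has no background computed for sums. Gene by gene, 1 of the 9 (Gstm2) lay wholly below the controls and 1 (Gstt1) wholly above. Over all tested genes, 5.27% lay below and 4.7% above. Gsto1 (ENSMUSG00000025068, chromosome 19, 47854970 to 47864790, plus strand), an omega-class enzyme with thiol transferase activity, was the most abundant of the 9. It had 44.1, 36.9 and 37.01 CPM in GR-cKO libraries and 54.1, 54.7 and 43.3 CPM in control libraries. Control replicate 3 lay between the GR-cKO values, so the groups overlapped. The log2 fold change was -0.37 with an SE of 0.137 (95% interval -0.65 to -0.08, edgeR unadjusted p = 0.0151, adjusted p = 0.998). Gstk1, a kappa-class enzyme of mitochondria and peroxisomes, is named here because its value was seen. It had 13.0, 19.6 and 12.6 CPM in GR-cKO libraries and 17.4, 25.9 and 19.8 CPM in control libraries. GR-cKO replicate 2 lay within the control range. Its log2 fold change was -0.48 (SE 0.205, edgeR unadjusted p = 0.0310, adjusted p = 0.998), -0.30 without control replicate 2 and -0.72 without GR-cKO replicate 2.

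The mu-class genes sit together on chromosome 3. Gstm2 had 21.6, 22.3 and 19.0 CPM in GR-cKO libraries and 22.6, 25.2 and 27.8 CPM in control libraries. The groups were separated by the narrow step between GR-cKO replicate 2 and control replicate 1, with a log2 fold change of -0.27 (SE 0.155, adjusted p = 0.998 in edgeR). Gstm1 averaged 25.4 ± 4.38 CPM in GR-cKO and 29.3 ± 6.601 CPM in control libraries, and Gstm5 averaged 39.2 ± 3.11 CPM in GR-cKO and 42.0 ± 2.59 CPM in control libraries (SD, n = 3 each). Gstt1, a theta-class enzyme, was the only gene with all GR-cKO libraries above the controls, at 3.24, 3.35 and 3.33 CPM in GR-cKO and 2.36, 2.98 and 3.04 CPM in control libraries. Its log2 fold change of 0.25 had a wide 95% interval of -0.47 to 0.96 (edgeR adjusted p = 0.998). The fold change was 0.13 without control replicate 1 and 0.31 without control replicate 3. The other soluble transferases overlapped between the groups. Gsta4, which acts on the lipid peroxidation product hydroxynonenal, averaged 15.1 ± 1.93 CPM in GR-cKO and 14.5 ± 2.69 CPM in control libraries. Gstz1, also an enzyme of tyrosine breakdown, averaged 25.0 ± 1.54 CPM in GR-cKO and 24.7 ± 4.56 CPM in control libraries. Gstp1, the pi-class enzyme, averaged 4.47 ± 1.14 CPM in GR-cKO and 4.75 ± 0.296 CPM in control libraries. The last 300 bases of a Gstp1 transcript are 100% identical to those of its neighbour Gstp2, so reads may be lost or split between the copies.

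Mgst1 (ENSMUSG00000008540, chromosome 6, 138140316 to 138156755, plus strand) had the smallest p-value of the set. Its product, microsomal glutathione transferase, sits in membranes of the endoplasmic reticulum and mitochondria and reduces lipid peroxides. It had 3.63, 3.87 and 6.13 CPM in GR-cKO libraries and 9.09, 13.1 and 6.98 CPM in control libraries, from 65 to 114 reads in GR-cKO and 133 to 255 reads in control libraries. All GR-cKO libraries lay below all controls, with GR-cKO replicate 3 and control replicate 3 close to each other. The log2 fold change was -1.10 with an SE of 0.289 (95% interval -1.71 to -0.49, edgeR unadjusted p = 0.00128, adjusted p = 0.998). DESeq2 gave an adjusted p of 0.431. Control replicate 2 was the highest library for Mgst1 and also had the largest sum of the 5 adipose markers. That sum spanned 1157 to 1423 CPM in GR-cKO and 1156 to 1618 CPM in control libraries. Most of it was Fabp4, at 1028 to 1249 CPM in GR-cKO and 1038 to 1338 CPM in control libraries. Cidea was highest in GR-cKO replicate 3, at 167 CPM, against 163 CPM in control replicate 2. The brown fat gene Ucp1 was at 0, 18.8 and 3.93 CPM in GR-cKO libraries and 6.78, 89.3 and 0.4196 CPM in control libraries. The fat cell genes Adipoq and Plin1 were at 13.2 and 14.7 CPM in control replicate 2, and at no more than 4.43 and 3.87 CPM in the other libraries. The part of adipose tissue in the Mgst1 values was not tested. Without control replicate 2 the log2 fold change was -0.83, and without GR-cKO replicate 3 it was -1.37.

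The whole window of the Mgst1 start that holds the antioxidant response element core (chr6:138140277-138140576, plus strand, GRCm38.p6) is printed because this gene had the largest fold change of the set, with the core in capitals.

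Mgst1: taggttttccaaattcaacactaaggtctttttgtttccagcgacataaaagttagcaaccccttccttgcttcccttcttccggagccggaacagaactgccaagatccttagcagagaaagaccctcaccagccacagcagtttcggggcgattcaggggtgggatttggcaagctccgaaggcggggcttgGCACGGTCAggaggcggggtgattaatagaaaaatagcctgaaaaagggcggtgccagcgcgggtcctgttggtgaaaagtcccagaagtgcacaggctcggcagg

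The table holds a second start of Mgst1 (chr6:138141337-138141636), whose window has no match. Mgst3, the abundant microsomal transferase of heart, had 148, 154 and 184 CPM in GR-cKO libraries and 165, 177 and 159 CPM in control libraries. The groups overlapped, with a log2 fold change of -0.04 (95% interval -0.29 to 0.20).

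The 5 glutathione peroxidases had a median log2 fold change of -0.03. Gpx1, the abundant cytosolic and mitochondrial selenoenzyme, had 210.3, 243 and 245 CPM in GR-cKO libraries and 221, 266 and 215 CPM in control libraries. The groups overlapped, and the log2 fold change of -0.01 had a 95% interval of -0.26 to 0.24. Gpx3, the secreted form, averaged 159.9 ± 25.5 CPM in GR-cKO and 156 ± 36.7 CPM in control libraries (SD, n = 3 each). Gpx4, which reduces lipid peroxides and guards against ferroptosis, had 25.0, 23.4 and 36.8 CPM in GR-cKO libraries and 29.1, 51.0 and 31.1 CPM in control libraries. Control replicate 2 was far above the other libraries, and the log2 fold change of -0.39 (SE 0.223, adjusted p = 0.998 in edgeR) was -0.09 without it and -0.62 without GR-cKO replicate 3. A processed pseudogene, Gpx4-ps2, matches the last 300 bases of Gpx4 at 99.7% and had 7.20 to 11.6 CPM, so the Gpx4 count is uncertain. Gpx7 and Gpx8, cysteine-based peroxidases of the endoplasmic reticulum, averaged 40.9 ± 2.75 and 27.6 ± 0.774 CPM in GR-cKO libraries and 41.7 ± 2.74 and 30.4 ± 3.04 CPM in control libraries.

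The 95% interval excluded a 1.5-fold difference for all 4 thioredoxin genes, as it did for 47.7% of all tested genes. Txn1, cytosolic thioredoxin, had 132, 165 and 133 CPM in GR-cKO libraries and 162, 168 and 154 CPM in control libraries. GR-cKO replicates 1 and 3 lay below all controls and GR-cKO replicate 2 lay among them, with a log2 fold change of -0.17 (SE 0.119, 95% interval -0.42 to 0.08, edgeR adjusted p = 0.998), and -0.29 without GR-cKO replicate 2. Its mitochondrial counterpart Txn2 averaged 119.6 ± 3.57 CPM in GR-cKO and 115 ± 8.91 CPM in control libraries (SD, n = 3 each). Txnrd1, the cytosolic reductase, averaged 25.7 ± 1.31 CPM in GR-cKO and 25.1 ± 4.13 CPM in control libraries. Txnrd2, the mitochondrial reductase, averaged 32.5 ± 2.32 CPM in GR-cKO and 32.5 ± 3.00 CPM in control libraries. The groups overlapped for all 4 genes.

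Of the 6 peroxiredoxins, 3 had positive and 3 had negative log2 fold changes (median 0.03). Prdx2, a cytosolic enzyme that is also a main protein of red blood cells, was the most abundant, at 677, 625 and 821 CPM in GR-cKO libraries and 670.0, 683 and 687 CPM in control libraries. GR-cKO replicate 3 lay above every other library and the log2 fold change was 0.06 (95% interval -0.19 to 0.30). The 8 erythroid markers summed to 6799 to 7787 CPM in GR-cKO and 6563 to 9231 CPM in control libraries. Their part in the Prdx2 values was not tested. Prdx1, its cytosolic paralog, averaged 557 ± 29.6 CPM in GR-cKO and 574 ± 24.1 CPM in control libraries, a log2 fold change of -0.04 (95% interval -0.26 to 0.18). Prdx4, the peroxiredoxin of the endoplasmic reticulum, had the smallest p-value of the family, at 67.1, 51.4 and 65.4 CPM in GR-cKO libraries and 58.6, 88.7 and 78.7 CPM in control libraries. Control replicate 1 lay among the GR-cKO values, and the log2 fold change of -0.30 (SE 0.149, adjusted p = 0.998 in edgeR) was -0.16 without control replicate 2, -0.19 without GR-cKO replicate 2 and -0.45 without control replicate 1.

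Prdx6, which also has phospholipase activity and uses glutathione, had 274, 284 and 380.3 CPM in GR-cKO libraries and 273, 235 and 287 CPM in control libraries. The log2 fold change of 0.24 (SE 0.133, adjusted p = 0.998 in edgeR) was 0.08 without GR-cKO replicate 3, the only GR-cKO library above the control range. It was 0.16 without control replicate 2 and 0.33 without GR-cKO replicate 1. Prdx3, the peroxiredoxin of the mitochondrial matrix, had 33.6, 33.5 and 64.6 CPM in GR-cKO libraries and 34.1, 49.3 and 40.1 CPM in control libraries. Its log2 fold change was 0.09 (95% interval -0.48 to 0.66) and turned to -0.29 without GR-cKO replicate 3. Prdx5, found in mitochondria, peroxisomes and cytosol, averaged 212 ± 5.89 CPM in GR-cKO and 213 ± 17.4 CPM in control libraries (SD, n = 3 each), and its exons overlap Trmt112 on the opposite strand. Prdx1, Prdx2, Sod1 and Sod2 also share a stretch of their last 300 bases with other genes or pseudogenes at 95% identity or more, and Prdx2 overlaps Junb on the opposite strand.

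Sod1, the cytosolic copper-zinc superoxide dismutase and the most abundant gene of the set, had 729, 719 and 926 CPM in GR-cKO libraries and 758, 628 and 715 CPM in control libraries. The log2 fold change of 0.18 (SE 0.122, 95% interval -0.08 to 0.43, edgeR adjusted p = 0.998) was 0.05 without GR-cKO replicate 3, the highest library. It was 0.10 without control replicate 2 and 0.24 without GR-cKO replicate 2. Sod2, the manganese enzyme of the mitochondrial matrix, had 514, 587 and 723 CPM in GR-cKO libraries and 639, 610 and 583 CPM in control libraries. The GR-cKO values lay on both sides of the controls, with a log2 fold change of -0.01 (95% interval -0.26 to 0.25). Sod3 (ENSMUSG00000072941, chromosome 5, 52363791 to 52371418, plus strand), the secreted enzyme of the extracellular matrix, was far less abundant than the other dismutases. It had 11.4, 12.1 and 12.2 CPM in GR-cKO libraries and 15.2, 23.1 and 14.4 CPM in control libraries. All GR-cKO libraries lay below all controls, with control replicate 2 standing apart. The log2 fold change was -0.56 with an SE of 0.203 (95% interval -0.98 to -0.13, edgeR unadjusted p = 0.0133, adjusted p = 0.998). It ran from -0.68 without control replicate 3 to -0.31 without control replicate 2. The 6 fibroblast markers, from the cells that make the matrix, summed to 2668 to 2928 CPM in GR-cKO and 2700 to 3352 CPM in control libraries. The highest sum was in control replicate 2. The 6 did not move together, as 4 had negative log2 fold changes and 2 had positive ones, Tcf21 at 0.24 and Pdgfra at 0.04. The part of fibroblasts in the Sod3 values was not tested.

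Catalase, NRF2 and its targets showed no call. Cat, the peroxisomal catalase, had 170.1, 173 and 180.2 CPM in GR-cKO libraries and 216, 164 and 184 CPM in control libraries. The groups overlapped, with a log2 fold change of -0.11 (95% interval -0.36 to 0.14). Nqo1, a quinone reductase, had 20.2, 18.4 and 22.2 CPM in GR-cKO libraries and 20.9, 24.7 and 22.7 CPM in control libraries. Its log2 fold change was -0.17 (SE 0.157, adjusted p = 0.998 in edgeR). It was -0.11 without GR-cKO replicate 2 or control replicate 2, and -0.24 without GR-cKO replicate 3. Hmox1, the inducible haem oxygenase, averaged 4.59 ± 1.23 CPM in GR-cKO and 4.22 ± 0.928 CPM in control libraries (SD, n = 3 each). Nfe2l2 averaged 44.5 ± 3.62 CPM in GR-cKO and 41.3 ± 4.18 CPM in control libraries, a log2 fold change of 0.11 (95% interval -0.17 to 0.39) that ran from 0.04 without control replicate 3 to 0.19 without control replicate 2.

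The genes were spread unevenly over the libraries in which they were highest or lowest. Control replicate 2 was the highest library for 16 of the 37 genes (43.2%), against 17.9% of all tested genes, among them Mgst1, Sod3, Gpx4, Gstk1, Gclc, Prdx4 and Nqo1. It also had the largest sums of adipose, fibroblast and erythroid markers. GR-cKO replicate 1 was the lowest library for 11 genes (29.7%, against 15.4% of all tested genes) and the highest for 1 (2.70%, against 16.1%). GR-cKO replicate 2 was the lowest for 9 (24.3%, against 16.4%). GR-cKO replicate 3 was the highest for 10 genes (27.0%, near the 23.0% of all tested genes), among them Sod1, Sod2, Prdx2, Prdx3 and Prdx6. That library was the lowest for 3 (8.11%, against 22.0%). There Gm42418, a transcript over ribosomal RNA sequence, took 10.9% of gene reads, against 5.47 to 7.69% in the other libraries, and heart muscle markers had their highest sum. Markers of immune cells were low, but their sums did not overlap between the groups. Single genes did not overlap for 9.97% of all tested genes, and no such share was computed for sums. The 8 macrophage markers summed to 115 to 130 CPM in GR-cKO and 109 to 111 CPM in control libraries. Their log2 fold changes were mixed, with 6 positive and 2 negative (Adgre1 at -0.28 and Cd68 at -0.06). The 7 neutrophil markers, of which 5 were tested and Elane had no read, summed to 19.5 to 27.8 CPM in GR-cKO and 12.6 to 15.3 CPM in control libraries. All 5 tested had positive log2 fold changes. None of these markers was called. The part of any of these features in the values was not tested.

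**Figure D4:**
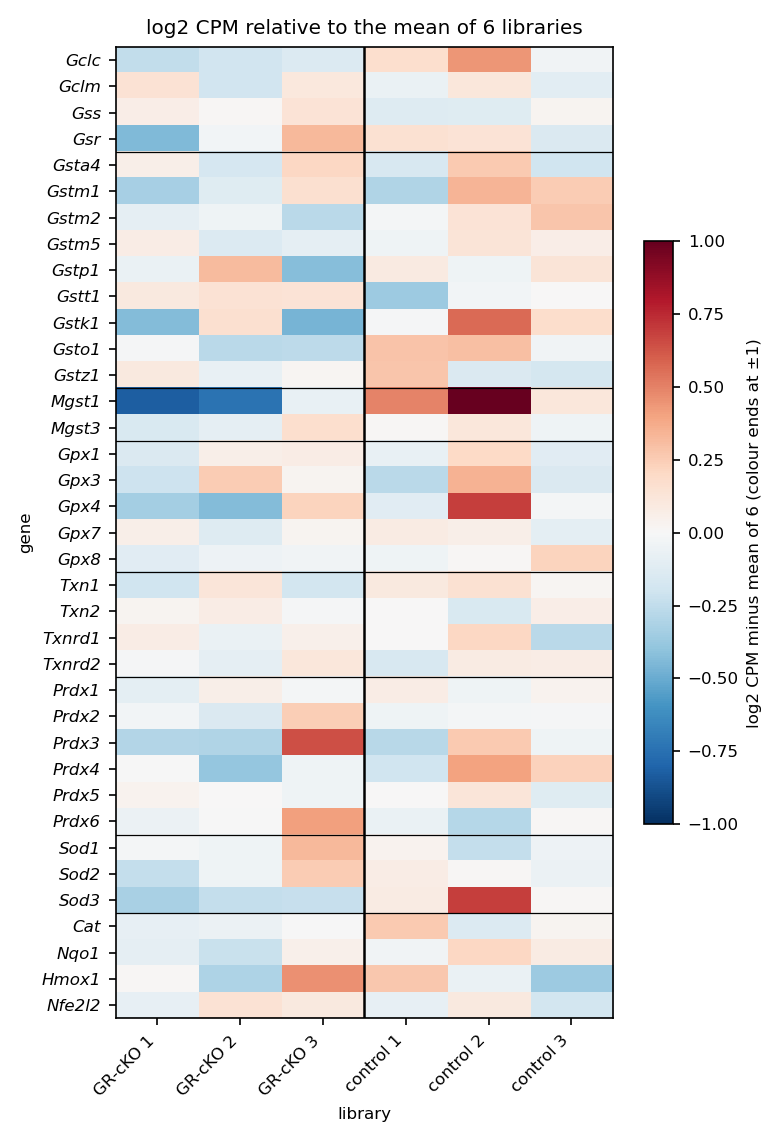
Log2 CPM of the 37 tested genes per library, as the difference from the gene's 6-library mean (colour), GR-cKO on the left and control on the right, with lines between role groups. Control replicate 2 is the highest library for Mgst1, Sod3 and Gpx4, and GR-cKO replicate 3 for Prdx3, Prdx6 and Sod1.

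Around these genes, 92 others of the pathway were listed, and 80 of them were tested. None passed the threshold, and 43 had positive and 37 had negative log2 fold changes (median 0.02). At an unadjusted p under 0.05 stood 3 higher and 2 lower genes, or 5 of 80 against the background of 4.20%. The groups did not overlap for 11 of the 80, with GR-cKO above for 5 and below for 6, against 9.97% of all tested genes. Selenow, a small selenoprotein abundant in muscle, had 29.9, 29.8 and 36.7 CPM in GR-cKO libraries and 25.7, 23.0 and 24.0 CPM in control libraries, a log2 fold change of 0.41 (SE 0.146, adjusted p = 0.998 in edgeR). Selenom, a selenoprotein of the endoplasmic reticulum, had 72.8, 64.8 and 76.3 CPM in GR-cKO libraries and 62.2, 48.9 and 64.0 CPM in control libraries. Its log2 fold change of 0.29 (SE 0.129, adjusted p = 0.998 in edgeR) was 0.18 without control replicate 2 and 0.36 without control replicate 3. All GR-cKO libraries lay above all controls for both selenoproteins. The 14 selenoproteins and genes of their synthesis had a median of -0.03 as a list, with 6 positive and 8 negative.

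Sestrins are stress-induced proteins that help to restore peroxiredoxins in some settings. Sesn1 had 35.5, 35.5 and 31.8 CPM in GR-cKO libraries and 48.5, 39.4 and 43.5 CPM in control libraries, a log2 fold change of -0.36 (SE 0.134, adjusted p = 0.998 in edgeR). Sesn3 had 25.1, 24.1 and 20.1 CPM in GR-cKO libraries and 29.6, 28.0 and 28.8 CPM in control libraries, a log2 fold change of -0.32 (SE 0.147, adjusted p = 0.998 in edgeR). Both had every GR-cKO library below every control, whereas Sesn2 averaged 4.42 ± 0.605 CPM in GR-cKO and 3.20 ± 0.684 CPM in control libraries. Tkt, transketolase of the pentose phosphate pathway, had 27.0, 29.0 and 26.7 CPM in GR-cKO libraries and 21.8, 18.6 and 23.4 CPM in control libraries, a log2 fold change of 0.37 (SE 0.151, adjusted p = 0.998 in edgeR). Tkt also had every GR-cKO library above the controls. Of the 8 genes of NADPH supply, which feeds both glutathione reductase and thioredoxin reductase, 6 had positive and 2 had negative log2 fold changes (median 0.11).

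Several relatives were near or at 0 in neonatal heart. Gsta1, Gstp3 and Gpx6 had no read in any library, and Gsta2, Gstm3, Gpx2, Gpx5 and Slc7a11, the cystine transporter subunit, stayed under 1 CPM in every library.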

How the data were processed

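The authors deposited raw read counts per gene for each of the 6 libraries, made with QuantSeq 3′ mRNA-Seq per the labels' protocols from 100 ng of total RNA. The submitters' processing notes name cutadapt 1.16, STAR 2.5.4a, featureCounts 1.6.2 and GRCm38. Neither source gives the strand setting or how multiply mapped reads were handled. The 99 rows of spike-in transcripts, 1.63 to 2.01% of reads, were left out. From the deposited counts, 14860 genes kept by filterByExpr were fitted with edgeR 4.0.16 (TMM scaling, robust quasi-likelihood F test, Benjamini-Hochberg adjustment over all of them, threshold 0.05). CPM were computed from the deposited counts with TMM-scaled totals of the tested genes, and log2 fold changes are GR-cKO over control. Intervals cover 95% and come from the fitted SE. The script was tested on simulated data. No pair of libraries agreed within sampling noise, with chi-square per degree of freedom of at least 10.1. Reads of Xist and of Y-linked genes marked 1 female and 2 male libraries in each group. The labels do not tie libraries to animals, so p-values set the group difference against the variation between these libraries. In edgeR that variation is moderated over all tested genes.

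The 38 genes and all gene and marker lists were chosen with earlier results of these data known. Values per library are given for the genes of smallest p and of highest CPM in each role group, for genes whose groups did not overlap, and for the 5 pathway genes of smallest p. Gstk1, Prdx6, Prdx3, Prdx1, Sod2 and Nfe2l2 were added after their values were seen. Promoter windows are RefSeq's. Alternatives were other scalings (RLE, library totals, spike-ins), other filters, DESeq2 1.42.0, limma voom 3.58.1, a sex term, a replicate block and leaving out each library.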

Additional observations from a re-analysis of the deposited data

How the results depend on the processing

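None of the 38 genes was called, higher or lower, under any alternative run, and Nr3c1 was called under all of them. Among all tested genes, the number called lower was 1, and 2 with library totals alone, 2 with a mean CPM of at least 5, 3 with DESeq2 and 6 without a filter on low counts. The number called higher was 0, and 1 with DESeq2 and 4 without the filter. Leaving out each library gave 1 to 2 lower and 0 higher genes. Same-numbered libraries did not deviate together (correlations of 0.06, 0.06 and 0.01), and the replicate block called 1 gene lower, 0 higher and 0 of the 38.

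The adjusted p of Mgst1 was 0.0886 without the filter, 0.431 with DESeq2, 0.969 with limma voom and 0.373 without GR-cKO replicate 3. Its log2 fold change ran from -1.37 to -0.83 without a library. The median log2 fold change of the soluble transferases was -0.21 with a mean CPM of at least 5, a filter that removes Gstp1 and Gstt1, and ran from -0.19 to -0.079996 without a library. That of the thioredoxin genes was 0.0640 with spike-in scaling and ran from -0.0256 to 0.0352 without a library. The median of the synthesis genes ran from -0.14 to 0.0397, and that of the superoxide dismutases from -0.15 to 0.10. Genes near 0 changed sign. With spike-in scaling Gpx1 was at 0.0464, Prdx1 at 0.00795 and Sod2 at 0.0240, and with library totals alone Gclm was at -0.00200. Without a library, Gclm ran from -0.0228 to 0.13, Mgst3 from -0.14 to 0.0181, Gpx1 from -0.0683 to 0.0942, Prdx2 from -0.0628 to 0.13, Prdx3 from -0.29 to 0.25, Sod2 from -0.15 to 0.10 and Cat from -0.20 to 0.00149. The cause of these shifts was not tested. With 3 libraries a group, depth and spread limit what can be seen for low genes such as Mgst1, Gstt1, Gstp1 and Hmox1.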
